A study of Homo sapiens with 15 samples.

Results

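The 10 mature miRNAs described here come from the miR-23, miR-24 and miR-27 hairpins: hsa-miR-23a-3p, hsa-miR-23a-5p, hsa-miR-23b-3p, hsa-miR-23c, hsa-miR-24-3p, hsa-miR-24-2-5p, hsa-miR-27a-3p, hsa-miR-27a-5p, hsa-miR-27b-3p and hsa-miR-27b-5p, named without the prefix hsa below. They were taken by name, and all 10 were listed in both count tables, which together hold 2424 miRNAs, 2418 of them counted in the knockdown experiment and 2189 in the RIP-seq experiment. Small RNA was sequenced from FTO1C1, FTO2D4 and FTO3C3, 3 uninduced Flp-In 293 T-Rex derivatives of the human embryonic kidney line HEK293. Each of the 5 groups held 3 libraries, 1 per derivative (called a clone below). In the knockdown experiment the cells received 10 nM of scrambled siRNA or of siRNA against FTO, an m6A demethylase, and were harvested after 48 h. The other groups are labelled as having no treatment, although their labels repeat the transfection protocol: small RNA precipitated with an antibody against N6-methyladenosine (m6A), small RNA precipitated with an IgG antibody as the background, and the input. Each clone is a single line, so the spread below is the spread over these 3 lines. The FTO mRNA is not part of small RNA counts, so the knockdown could not be checked in these libraries.

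The miR-23, miR-27 and miR-24 hairpins lie side by side in a pair of paralogous clusters, and each cluster is cut from a common primary transcript. The hairpin is processed to a duplex of a 5p and a 3p strand, of which usually one is kept by Argonaute proteins and guides them to mRNAs through its seed, while the other is mostly degraded. miR-27 is known for repressing genes of lipid metabolism and fat cell differentiation, miR-24 for repressing cell cycle genes, and miR-23a and miR-23b for repressing the mitochondrial glutaminase. In the assembly GRCh38.p14 the hairpins MIR23A, MIR27A and MIR24-2 span 373 bases at chr19:13836287-13836659 on the minus strand. MIR23B, MIR27B and MIR24-1 span 881 bases at chr9:95085208-95086088 on the plus strand, and MIR23C lies apart from both clusters at chrX:20017088-20017187 on the minus strand.

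Sequences of all 10 miRNAs were matched by name in RefSeq (GRCh38.p14). They are shown, 5′ to 3′, because each count is a count of reads on one of them and because relatives differ by few bases. Capitals mark the seed, bases 2 to 8.
miR-23a-3p: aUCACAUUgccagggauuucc
miR-23b-3p: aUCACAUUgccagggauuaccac
miR-23c: aUCACAUUgccagugauuaccc
miR-27a-3p: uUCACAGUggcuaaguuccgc
miR-27b-3p: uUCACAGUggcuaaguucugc
miR-24-3p: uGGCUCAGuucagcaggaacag
miR-27a-5p: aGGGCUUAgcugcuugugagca
miR-27b-5p: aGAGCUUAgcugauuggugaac
miR-23a-5p: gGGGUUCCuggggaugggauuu
miR-24-2-5p: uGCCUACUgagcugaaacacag
The 3 miR-23 sequences share 1 seed, and so do both miR-27 3p arms. With positions counted from 1 at the 5′ end, miR-23a-3p and miR-23b-3p differ by U19A, and miR-23a-3p and miR-23c by G14U and U19A. miR-27a-3p and miR-27b-3p differ by C19U, with 20 of 21 bases identical. The 5p arms of the same hairpins are less alike: miR-27a-5p and miR-27b-5p differ at 8 of 22 bases, of which G3A lies in the seed. Reads were matched to the miRNAs with the best exact match, so the 3p relatives could hold each other's reads, which makes the split between miR-23a-3p, miR-23b-3p and miR-23c, and that between both miR-27 3p arms, uncertain. miR-24-3p is made by both clusters and its count cannot be assigned to one of them. Sites for m6A are known to lie mostly at an A followed by C. AAC or GAC, searched on the RNA strand only, was found in 3 of the 10 sequences (miR-24-3p at bases 18 to 20, miR-24-2-5p at bases 16 to 18 and miR-27b-5p at bases 20 to 22), against 36.1% of 2370 mature miRNAs. The longer form, AAC or GAC preceded by A or G and followed by any base but G, overlaps the first motif and was found in 2 of them, miR-24-3p and miR-24-2-5p, against 20.7%.

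Libraries held between 1991317 and 3876806 miRNA reads in the knockdown experiment, 1408702 to 1500357 in the input, 569501 to 4973238 in the m6A and 186446 to 786688 in the IgG precipitates. Levels are given as RPM, reads per 1000000 miRNA reads of the library. A single miRNA, miR-6080, took 2.05% to 4.18% of the reads in the knockdown experiment but 15.5% to 28.4% in the input, 41.3% to 47.8% in the m6A and 58.0% to 71.6% in the IgG precipitates, so RPM in the precipitates are shares of differently composed libraries. Its count was the same number, 563404, in the IgG and the m6A precipitate of FTO2D4, the only count of 1000 or more that any pair of RIP-seq libraries shared. Its part in the results was not tested beyond the totals without miR-6080 used as an alternative. The 5 miRNAs set as typical of this line (miR-10a-5p, miR-10b-5p, miR-196a-5p, miR-92a-3p and miR-17-5p) summed to 369240 to 467613 RPM with scrambled siRNA, 147321 to 235646 in the input, 89773 to 116160 in the m6A and 1010 to 2419 in the IgG precipitates. Of 8 miRNAs of liver, blood, muscle and neurons, 7 were listed for the knockdown experiment and 6 for the RIP-seq experiment, and they summed to 84.7 to 134.6 RPM in the knockdown experiment, 448 to 882 in the input, 811 to 2021 in the m6A and 89.0 to 145 in the IgG precipitates, most of it miR-223-3p, a miRNA of myeloid blood cells, in the input and the m6A precipitates. Their part in the results was not tested.

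miR-27b-3p was by far the most abundant of the 10 miRNAs. With scrambled siRNA it stood at 11226, 12215 and 12177 RPM in FTO1C1, FTO2D4 and FTO3C3, rank 15 of all miRNAs by mean level, and made up 94.0% to 94.7% of the reads on the 10 miRNAs. Its mean was 11873 ± 561 RPM (SD, n = 3 in all values given this way). The next levels were those of miR-27a-3p at 239.5 ± 45.4, miR-27b-5p at 129.6 ± 11.9 and miR-24-3p at 105.7 ± 18.6 RPM. The ranges of miR-27a-3p and miR-27b-5p did not overlap, whereas those of miR-27b-5p and miR-24-3p did. miR-23b-3p followed at 87.1 ± 9.47, miR-23c at 53.5 ± 7.98, miR-23a-3p at 37.4 ± 2.45 and miR-27a-5p at 37.3 ± 7.66 RPM. miR-24-2-5p had 25.5 ± 4.91 RPM, and miR-23a-5p had 6.84 ± 3.14 RPM, from 8 to 30 reads. Neighbours in this order overlapped in range from miR-27b-5p to miR-23b-3p and from miR-23a-3p to miR-24-2-5p. With at least 15 RPM in every scrambled siRNA library, the limit used in the study, 9 of the 10 counted as expressed, all but miR-23a-5p. Of all 2418 listed miRNAs, 1032 did. The plot of levels by library shows the arms of the same hairpin parting in the RIP-seq groups.

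**Figure D1:**
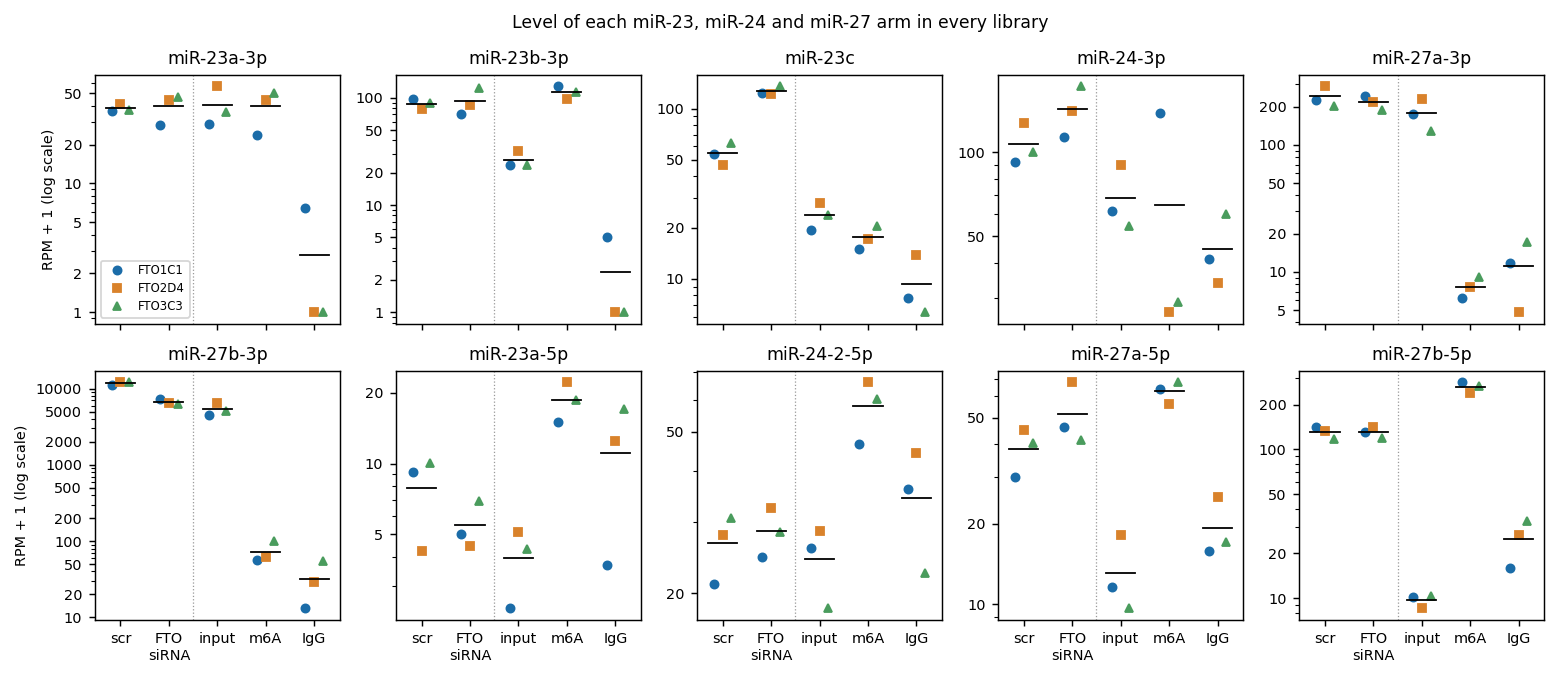
Level of each of the 10 miRNAs in all 15 libraries, as RPM + 1 on a log axis that differs between panels. Symbols are clones, black lines the means of 3 libraries, and the dotted line parts the knockdown from the RIP-seq experiment. miR-27b-3p fell from 11873 RPM with scrambled siRNA to 6672 with FTO siRNA, and stood at 5372 in the input and 71.7 in the m6A precipitate, where miR-27b-5p reached 262.

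The comparison of FTO siRNA with scrambled siRNA asks which miRNAs change when the demethylase is depleted. One of the 10 miRNAs rose and 1 fell, miR-23c and miR-27b-3p, at an adjusted p under 0.05 in edgeR's quasi-likelihood test with the clone as a block. Over all 2374 miRNAs tested, 4.97% rose and 0.505% fell (118 and 12 miRNAs, but 21 and 34 with TMM factors). The other 8 did not pass. The median log2 change of the 10 was 0.03, beside 0.29 over all miRNAs tested. Values are therefore also given relative to the latter median, to which TMM scaling, which moves the median to -0.00035, comes close.

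miR-27b-3p had 25143, 22704 and 24166 reads with FTO siRNA, and 40838, 30097 and 24249 with scrambled siRNA. Scaled to the library, that is 7225, 6556 and 6233 RPM against 11226, 12215 and 12177, and the groups did not overlap. The FTO siRNA libraries held 0.644, 0.537 and 0.512 times the level of the scrambled libraries of the same clone. The log2 fold change was -0.83 (SE 0.13, edgeR adjusted p = 0.00976), the 16th lowest of all tested, or -1.12 relative to the median. The opposite arm of the same hairpin, miR-27b-5p, had 129.9, 140.6 and 117.6 RPM with FTO siRNA and 139.9, 132.3 and 116.5 with scrambled siRNA. Its ratios were 0.928, 1.06 and 1.01, and its log2 fold change was -0.0023 (SE 0.17, adjusted p = 0.992). Within the libraries, the number of miR-27b-3p reads per miR-27b-5p read was 80.2, 92.3 and 104.5 in the scrambled and 55.6, 46.6 and 53.0 in the FTO siRNA libraries. This ratio does not depend on the library total. It fell by 0.53, 0.98 and 0.98 on the log2 scale in the 3 clones, a mean change of -0.83 ± 0.26, and the groups did not overlap. In the fits over all miRNAs, the difference in log2 change between the arms was -0.83, the 49th lowest among 706 hairpins with both arms tested.

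miR-23c rose. It had 424, 417 and 523 reads with FTO siRNA against 192, 113 and 123 with scrambled siRNA, or 121.8, 120.4 and 134.9 RPM against 52.8, 45.9 and 61.8. Each FTO siRNA library lay above each scrambled one, and the ratios were 2.31, 2.63 and 2.18. The log2 fold change was 1.24 (SE 0.18, edgeR adjusted p = 0.00696), the 15th highest, or 0.95 relative to the median. The relatives with the same seed did not pass the test. miR-23a-3p had 27.6, 43.3 and 46.2 RPM against 35.7, 40.2 and 36.2, and miR-23b-3p had 69.0, 84.6 and 121.2 against 95.9, 77.1 and 88.4. In both, the FTO siRNA values lay lower in FTO1C1 and higher in FTO2D4 and FTO3C3, with log2 fold changes of 0.03 (SE 0.21, adjusted p = 0.948) and 0.04 (SE 0.21, adjusted p = 0.932). miR-23c thus took 28.6%, 28.1% and 33.2% of the reads on the 3 miR-23 sequences in the scrambled and 55.8%, 48.5% and 44.6% in the FTO siRNA libraries. The ratio of miR-23a-3p to miR-23b-3p changed by -0.01 ± 0.11 on the log2 scale.

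The remaining miRNAs of the clusters did not pass the test in this comparison. miR-24-3p had 112.4, 140.1 and 172.0 RPM with FTO siRNA and 91.0, 126.6 and 99.4 with scrambled siRNA, higher in each clone but with overlapping groups, at a log2 fold change of 0.41 (SE 0.19, adjusted p = 0.197). miR-27a-5p was likewise higher in each clone, by 1.56, 1.53 and 1.03 times, at 0.44 (SE 0.21, adjusted p = 0.206). miR-27a-3p, which differs from miR-27b-3p by 1 base, had 243.4, 217.2 and 188.3 RPM against 226, 290.2 and 202.4, at -0.14 (SE 0.17, adjusted p = 0.61). The share of miR-27a-3p in the reads on both miR-27 3p arms was 1.97%, 2.32% and 1.64% in the scrambled and 3.26%, 3.21% and 2.93% in the FTO siRNA libraries. miR-24-2-5p stood at 0.12 (adjusted p = 0.718), and miR-23a-5p, with 12 to 23 reads against 8 to 30, at -0.61 (SE 0.32, adjusted p = 0.254). The other arms of these hairpins, miR-23b-5p and miR-24-1-5p, the miR-3074-5p and miR-3074-3p strands opposite miR-24-1, and miR-128-3p, whose seed overlaps that of miR-27, gave 0 calls of 5, and their lowest unadjusted p in edgeR was 0.253. Their log2 fold changes lay between -0.18 and 0.33.

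Both calls were lost without FTO1C1. In the remaining 2 clones no miRNA of the whole table passed edgeR's test, although 327 had an unadjusted p under 0.05. miR-23c then stood at 1.26 (adjusted p = 0.204) and miR-27b-3p at -0.93 (adjusted p = 0.117). The study called a miRNA increased at a mean ratio above 2 and decreased below 0.5, without a test, and also used a lower threshold of 1.5-fold. As applied here, an increased miRNA had at least 15 RPM in every FTO siRNA library and a decreased one in every scrambled siRNA library. By the first threshold miR-23c was the 1 increased member, where 1.45% of all listed miRNAs were, and 0 of the 10 were decreased, where 0.165% were. The mean ratio of miR-27b-3p was 0.564, and with TMM scaling it met the rule for a decrease and miR-23c no longer that for an increase. At 1.5-fold miR-23c was increased and miR-27b-3p decreased, where 11.0% and 0.703% of all listed miRNAs were, and both were so with TMM scaling as well. Applied this way, the rules gave 35 increased and 4 decreased miRNAs, and 266 and 17 at 1.5-fold. The study reports other numbers for each.

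**Figure D2:**
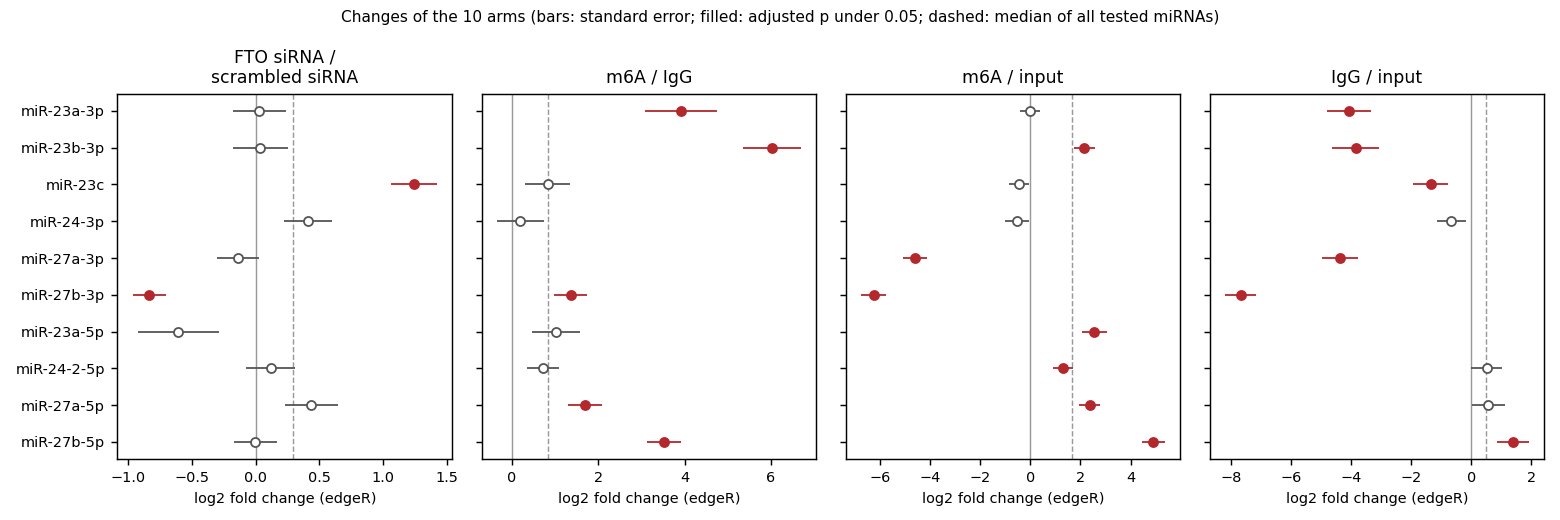
Log2 fold change of the 10 miRNAs in the 4 comparisons, from edgeR. Bars are standard errors, filled red symbols have an adjusted p under 0.05, the dashed line is the median of all miRNAs tested, and a missing symbol marks a miRNA removed by the filter on low counts. In both panels against input, the miR-27 3p arms lie far left, at -6.24 and -4.59 for m6A, and miR-27b-5p lies right, at 4.90.

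The comparison of the m6A with the IgG precipitate asks which miRNAs the m6A antibody enriched above background. Of the 10 miRNAs, 9 passed the filter on low counts (a minimum count of 10), and 5 of these were higher in the m6A precipitate: miR-27b-5p, miR-23b-3p, miR-23a-3p, miR-27a-5p and miR-27b-3p. Over all 2054 miRNAs tested, 38.6% were higher and 1.27% lower (792 and 26, but 453 and 302 with TMM factors), which is the background for these 5 of 9. The median log2 change was 1.36 for the 9 and 0.83 for all. However, 5 of the 9 (miR-23a-3p, miR-23b-3p, miR-23c, miR-23a-5p and miR-27b-3p) reached the filter in all 3 libraries of the m6A group only, so the count and the median support nothing about the clusters. Without the filter the calls of the 9 were unchanged. The m6A libraries of this comparison are also those compared with the input below, and the IgG libraries are used again as well, so the comparisons are not independent of each other.

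miR-27b-5p had the highest m6A level of the 10 miRNAs. It had 161, 326 and 1314 reads in the m6A precipitates and 11, 20 and 6 in the IgG precipitates. Scaled to the library these were 282.7, 239.2 and 264.2 RPM against 14.8, 25.4 and 32.2, and the groups did not overlap. The ratio of m6A to IgG was 19.1, 9.41 and 8.21, with a mean of 12.2 ± 5.95, and the log2 fold change was 3.52 (SE 0.39, edgeR adjusted p = 0.000157). It kept its call under TMM factors, DESeq2, totals without miR-6080 and with any clone left out. It was the only one of the 10 with at least 100 RPM in all 3 m6A libraries, and with a mean ratio of at least 2 the only one that met the study's rule for enrichment. As applied here, with 100 RPM needed in all 3 m6A libraries, the rule was met by 258 miRNAs, 11.8% of all listed. The study reports a different number.

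miR-23b-3p and miR-23a-3p were almost missing from the IgG precipitates. miR-23b-3p had 73, 131 and 562 reads with m6A and 3, 0 and 0 with IgG. In FTO1C1 its ratio was 31.7 (95% counting interval 10.4 to 157). With 3 reads in place of a count of 0, the ratio was 25.2 in FTO2D4 and 7.02 in FTO3C3. The IgG library of FTO3C3 was the smallest, and 3 reads in it are 16.1 RPM. Both ratios leave out the counting error of the m6A reads and the spread between libraries, so they are no strict bounds. They also rest on totals of which miR-6080 took 71.6% in the IgG and 41.3% in the m6A library of FTO2D4. miR-23a-3p had 13, 59 and 247 reads with m6A and 4, 0 and 0 with IgG. Its ratios were 4.23 (1.31 to 17.8) and, with 3 reads in place of 0, 11.4 and 3.09, with the same limits. Both had passed the filter on low counts through the m6A group alone, where they are high, so a pass of edgeR's test (adjusted p = 0.000159 for miR-23b-3p and 0.00554 for miR-23a-3p, the latter lost without FTO2D4) adds little to these counts. In a fit with no filter the adjusted p were 0.000116 and 0.00491. Their fitted log2 fold changes of 6.03 and 3.91 rest on these few IgG reads and are no bounds. miR-23b-3p, at 128.2, 96.1 and 113.0 RPM with m6A, missed the 100 RPM of the study's rule in 1 clone, FTO2D4, and met the rule without it.

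The third relative with this seed, miR-23c, did not pass. It had 8, 22 and 96 reads with m6A and 5, 10 and 1 with IgG, or 14.0, 16.1 and 19.3 RPM against 6.74, 12.7 and 5.36, higher in each clone, at a log2 fold change of 0.84 (SE 0.52, adjusted p = 0.236). It took 8.51%, 10.4% and 10.6% of the reads on the 3 miR-23 sequences in the m6A precipitates, against 26.8%, 23.5% and 28.3% in the input. The share with IgG is based on too few reads to be compared. The plot of shares shows both the rise of this share with FTO siRNA and its low value with m6A.

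**Figure D3:**
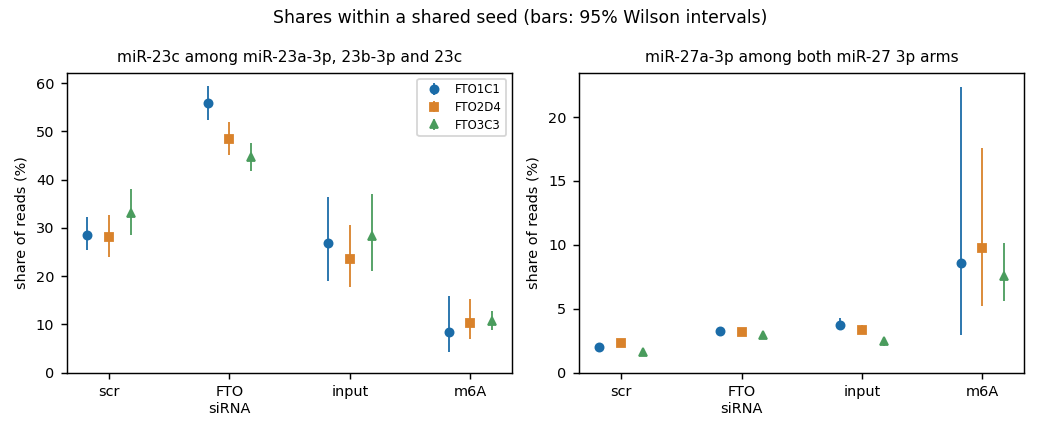
Share of reads, in percent, that miR-23c takes among the 3 miR-23 sequences with the same seed (left) and miR-27a-3p among both miR-27 3p arms (right), in each clone. Bars are 95% Wilson intervals, which cover counting error only. miR-23c lies at 28.1% to 33.2% with scrambled siRNA, 44.6% to 55.8% with FTO siRNA and 8.51% to 10.6% in the m6A precipitate.

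Of the miR-27 arms, miR-27a-5p had 63.2, 55.0 and 66.8 RPM with m6A against 14.8, 24.2 and 16.1 with IgG, and a log2 fold change of 1.70 (SE 0.40, adjusted p = 0.00878). miR-27b-3p, the most abundant of the 10 in cells, had only 32, 83 and 487 reads with m6A and 9, 22 and 10 with IgG, at 1.36 (SE 0.39, adjusted p = 0.0226). miR-27b-3p reached the filter on low counts in all 3 libraries of the m6A group only, where it is high, so its call adds little to these reads. Neither miR-27a-5p nor miR-27b-3p passed with TMM factors, DESeq2 or totals without miR-6080. miR-27a-5p was also lost without FTO3C3, and miR-27b-3p without any one clone. miR-27a-3p had 3, 9 and 40 reads with m6A and 8, 3 and 3 with IgG, too few for the test. It was lower with m6A in FTO1C1 and FTO3C3 and higher in FTO2D4, at 5.27, 6.60 and 8.04 RPM against 10.8, 3.81 and 16.1.

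The remaining 3 did not pass. miR-24-3p, 1 of the 2 members that hold the longer m6A motif, had 137.0, 25.7 and 28.2 RPM with m6A and 40.5, 33.0 and 59.0 with IgG. It was higher in FTO1C1 and lower in the other clones, at 0.20 (SE 0.55, adjusted p = 0.801). The other one, miR-24-2-5p, had 45.7, 65.3 and 59.3 RPM against 35.1, 43.2 and 21.5, at 0.72 (SE 0.37, adjusted p = 0.156), and miR-23a-5p had 14.0, 21.3 and 17.7 RPM against 2.70, 11.4 and 16.1, at 1.03 (SE 0.56, adjusted p = 0.177). Of the 5 other miRNAs of these loci or of related seed, 4 were higher with m6A, beside 38.6% of all miRNAs tested: miR-24-1-5p at 2.19, miR-3074-5p at 1.70, miR-3074-3p at 1.36 and miR-128-3p at 1.21. miR-23b-5p, at 1.14, did not pass (adjusted p = 0.0924). However, miR-24-1-5p, miR-3074-3p and miR-23b-5p reached the filter, 13.1 RPM here, in all 3 libraries of the m6A group only. With IgG they had 5.39 to 10.7, 10.7 to 20.2 and 8.09 to 26.7 RPM, so this count supports nothing about these miRNAs.

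Against the input, both arms of the miR-27 hairpins parted. The 3p arms that make up nearly all miR-27 reads of the cells were lower in the m6A precipitate than in the input, whereas the 5p arms were higher. In all, 5 of the 10 miRNAs were higher and 2 lower by edgeR's test, where 66.8% of 2174 miRNAs were higher and 10.5% lower (1452 and 229, but 575 and 614 with TMM factors). With TMM factors 1 of the 10 was higher and 5 were lower. The median log2 change was 0.65 for the 10 and 1.65 for all. Of the 10, 2 passed the filter on low counts only through the group where they are high, miR-23a-5p (m6A) and miR-27a-3p (input). The count and the median therefore support nothing about the clusters.

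miR-27b-3p had 6329, 9510 and 7666 reads in the input and 32, 83 and 487 in the m6A precipitate. In RPM it fell from 4493, 6515 and 5109 to 56.2, 60.9 and 97.9, which are 0.0125, 0.00935 and 0.0192 of the input. The log2 fold change was -6.24 (SE 0.51, edgeR adjusted p = 1.99e-10), the 6th lowest of all tested. miR-27a-3p fell from 175.3, 226.8 and 128.0 RPM to 5.27, 6.60 and 8.04, a log2 fold change of -4.59 (SE 0.49, adjusted p = 6.82e-09), the 23rd lowest. It passed the filter on low counts through the input group alone, where it is high, so its test adds little to these levels. The opposite arm miR-27b-5p rose from 9.23, 7.54 and 9.33 RPM, or 13, 11 and 14 reads, to 282.7, 239.2 and 264.2 RPM. Its ratio to the input was 30.6, 31.7 and 28.3, and its log2 fold change was 4.90 (SE 0.47, adjusted p = 1.74e-09), the 25th highest. miR-27a-5p rose from 10.6, 17.1 and 8.66 RPM to 63.2, 55.0 and 66.8, at 2.37 (SE 0.42, adjusted p = 1.22e-05). The direction and the call of miR-27b-3p, miR-27a-3p and miR-27b-5p held under every alternative tried, with miR-27b-5p at 3.36 with TMM factors, while miR-27a-5p kept its sign but lost its call with TMM factors and DESeq2.

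Within a library the arms can be compared without any scaling, as the plot of arm ratios shows. For each miR-27b-5p read the input held 487, 865 and 548 reads of miR-27b-3p, and the m6A precipitate 0.199, 0.255 and 0.371. The order of the arms was thus turned around in all 3 clones, and miR-27b-5p took 83.4%, 79.7% and 73.0% of the reads of both arms in place of 0.205%, 0.116% and 0.182%. For miR-27a the ratio was 16.5, 13.2 and 14.8 in the input and 0.0833, 0.12 and 0.12 in the m6A precipitate. On the log2 scale the ratios changed by -11.1 ± 0.59 for miR-27b and -6.98 ± 0.36 for miR-27a. In the fits over all miRNAs the difference between the arms of miR-27b was -11.1, the 2nd lowest among 587 hairpins with both arms tested, and that of miR-27a was -6.96, the 7th lowest, beside a median of -0.33 over these hairpins. In 55.1% of 584 hairpins with both arms in each table, the arm with the higher level under scrambled siRNA was the one with the lower change. Of the 100 most abundant miRNAs under scrambled siRNA that were tested, 72 had a negative log2 change in the m6A precipitate, with a median of -1.43.

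**Figure D4:**
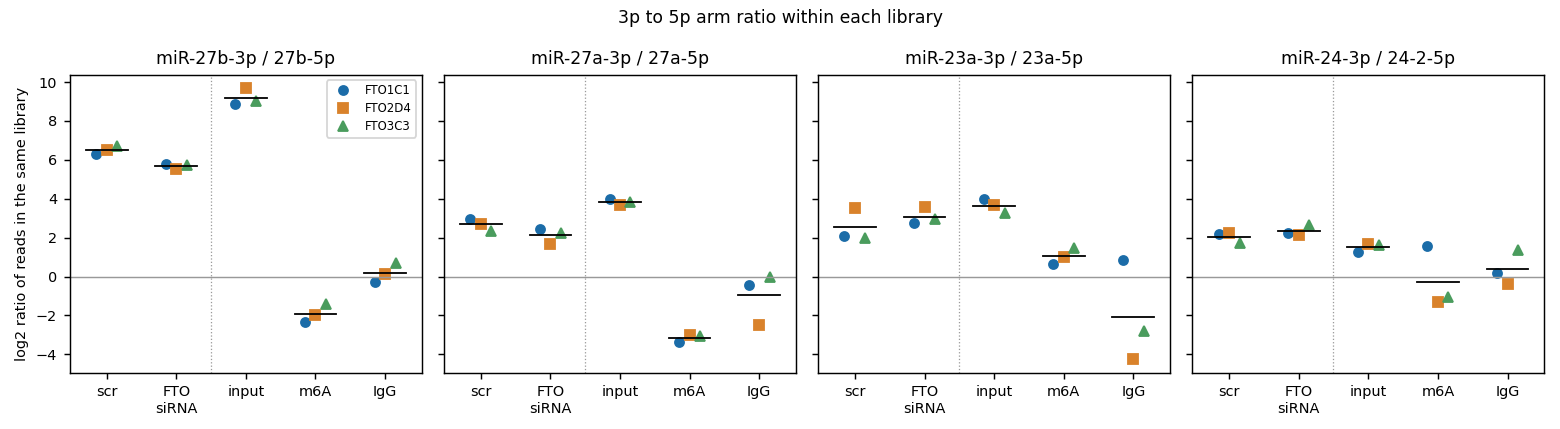
Ratio of 3p to 5p reads within each library on a log2 axis (0.5 reads added to both counts) for 4 arm pairs. Symbols are clones, lines are means, and 0 marks equal numbers of reads. The miR-27b ratio lies above 5 in all scrambled and FTO siRNA libraries, near 9 in the input and below 0 in every m6A library; miR-23a with IgG rests on 0 to 4 reads of the 3p arm.

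The arms of miR-27 also changed places or drew level in the IgG precipitate. There the miR-27b ratio of 3p to 5p was 0.818, 1.10 and 1.67, a log2 change of -9.02 ± 0.61 from the input, and the miR-27a ratio was 0.727, 0.158 and 1.00, a change of -4.82 ± 1.22. From IgG to m6A the miR-27b ratio changed by -2.04, -2.10 and -2.12 in the 3 clones, a mean of -2.09 ± 0.04. The IgG ratios rest on 9 and 11, 22 and 20, and 10 and 6 reads of the 3p and the 5p arm, so their counting error is larger than this spread. That of miR-27a changed by -2.17 ± 1.43 with 3 to 8 reads of the 3p arm in the IgG libraries. In the fits for IgG against input, the difference between the arms was -9.06 for miR-27b, the 3rd lowest among 490 hairpins with both arms tested. That of miR-27a was -4.94, the 24th lowest. In 64.1% of 487 hairpins the arm with the higher level under scrambled siRNA had the lower change with IgG. The difference between the arms of miR-27b in the fits was -2.17 for m6A against IgG, the 89th lowest of 517 hairpins. With the exact sign permutation over 3 clones no change of a ratio can have a p below 0.25, and 9 ratios were compared in 4 comparisons.

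The miR-23 relatives parted from each other as well. miR-23b-3p rose from 22.7, 30.8 and 22.7 RPM in the input to 128.2, 96.1 and 113.0 in the m6A precipitate, by 5.64, 3.12 and 4.99 times, a log2 fold change of 2.14 (SE 0.42, edgeR adjusted p = 4.90e-05). miR-23a-3p, which differs from it by U19A and at the 3′ end, had 27.7, 56.2 and 34.7 RPM in the input and 22.8, 43.3 and 49.7 with m6A, at -0.02 (SE 0.39, adjusted p = 0.963). miR-23a-3p outnumbered miR-23b-3p in every input library and was outnumbered in every other library of at least 10 reads of each, so that the log2 ratio of both fell by 2.17 ± 0.49 from input to m6A. miR-23c had 18.5, 26.7 and 22.7 RPM in the input and 14.0, 16.1 and 19.3 with m6A, at -0.44 (SE 0.39, adjusted p = 0.305). With TMM factors the calls changed. miR-23b-3p was no longer called, at 0.60, and miR-23a-3p and miR-23c were called lower, at -1.58 and -2.02. TMM moved the median over all miRNAs from 1.65 to 0.10. Relative to the median of all miRNAs, the log2 changes with the totals alone were 0.49 for miR-23b-3p, -1.67 for miR-23a-3p and -2.10 for miR-23c.

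Of the miR-24 arms, miR-24-2-5p was higher with m6A than in the input and miR-24-3p did not pass. miR-24-3p had 60.3, 89.1 and 53.3 RPM in the input and 137.0, 25.7 and 28.2 with m6A, higher in FTO1C1 and lower in the other 2 clones, at -0.52 (SE 0.49, adjusted p = 0.326). With TMM factors it was called lower, at -2.08, and without FTO1C1 too, at -1.34. miR-24-2-5p had 24.8, 27.4 and 17.3 RPM against 45.7, 65.3 and 59.3, at 1.31 (SE 0.40, adjusted p = 0.004), which lies below the median of all miRNAs and turned to -0.23 with TMM factors. miR-23a-5p rose from 2 to 6 reads in the input to 8, 29 and 88 with m6A, at 2.55 (SE 0.51, adjusted p = 6.36e-05), a call lost with TMM factors at 1.01. It passed the filter on low counts through the m6A group alone, where it is high, and its adjusted p with no filter was 0.000111. Of the 5 related miRNAs, miR-24-1-5p at 3.13, miR-3074-5p at 2.16 and miR-23b-5p at 1.85 were higher, miR-128-3p at -1.35 was lower and miR-3074-3p at 0.69 did not pass, beside 66.8% higher and 10.5% lower over all miRNAs tested. The value of miR-24-1-5p rests on 9, 9 and 0 reads in the input. It passed the filter on low counts through the m6A group alone, where it is high, so its call adds little. miR-128-3p, with 357 ± 117 RPM in the input and 137 ± 27.7 with m6A, thus was lower like the miR-27 3p arms but by less.

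The IgG precipitate against the input gives the background of precipitation. Of 9 miRNAs tested, 5 were lower and 1 higher, where 21.8% of 1941 miRNAs were lower and 36.8% higher (423 and 714, but 586 and 559 with TMM factors). The median was -1.35 for the 9 and 0.49 for all, but 6 of the 9 passed the filter on low counts through 1 group only, so the count and the median support nothing about the clusters. Lowest was miR-27b-3p, which fell from 5372 ± 1036 RPM to between 12.1 and 53.6 RPM, at -7.68 (SE 0.52, adjusted p = 4.91e-45), the 11th lowest. The quasi-likelihood fit shares variance across miRNAs, so this p does not measure the spread of miR-27b-3p alone over 3 clones. Its ratios of IgG to input were 0.0027, 0.00429 and 0.0105. miR-27a-3p at -4.37, miR-23a-3p at -4.06, miR-23b-3p at -3.85 and miR-23c at -1.35 were lower too, and miR-27b-5p was higher, at 1.38 (SE 0.54, adjusted p = 0.0202). However, miR-27a-3p, miR-23a-3p, miR-23b-3p and miR-23c passed the filter through the input group alone, and miR-27b-5p and miR-27a-5p through the IgG group alone. Each passed through the group where it is higher, so these calls add little to the levels. The values of miR-23a-3p and miR-23b-3p rest on IgG reads of 4, 0 and 0 and of 3, 0 and 0 and are no bounds: with a clone left out they ranged from -8.68 to -2.85 and from -7.85 to -2.86. The calls of miR-27b-5p and of miR-23c were lost with any clone left out, and that of miR-27b-5p also with TMM factors, at 0.87. miR-24-3p at -0.67, miR-24-2-5p at 0.52 and miR-27a-5p at 0.57 did not pass, and miR-23a-5p had too few reads. Of the 100 most abundant miRNAs under scrambled siRNA, 96 had a negative log2 change in IgG, with a median of -4.89.

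The scrambled siRNA and the input libraries come from separate experiments and tables, so their levels are only set side by side. miR-27b-5p had 116.5 to 139.9 RPM with scrambled siRNA and 7.54 to 9.33 in the input, and miR-27b-3p had 11226 to 12215 and 4493 to 6515. The reads of miR-27b-3p per read of miR-27b-5p were 80.2 to 104.5 in the one and 487 to 865 in the other. For miR-27a the ratios were 5.17 to 7.83 and 13.2 to 16.5. All 10 miRNAs together took 1.19% to 1.30% of the reads with scrambled siRNA, 0.709% to 0.800% with FTO siRNA, 0.484% to 0.700% in the input, 0.0630% to 0.0769% with m6A and 0.0147% to 0.0220% with IgG. miR-27b-3p was 94.0% to 94.7% of these reads in the first group and 7.31% to 13.5% in the m6A precipitate.

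Over all 15 libraries, the miRNAs whose log2(RPM + 1) was most like that of a cluster member were named for 1 arm of each family, among 436 miRNAs of both tables with a mean of at least 100 RPM. For miR-23a-3p they were miR-567 (Pearson's r = 0.944), miR-31-5p (0.940) and let-7g-5p (0.926). Within the 6 libraries of the knockdown experiment the same pairs had r = 0.314, 0.0831 and 0.0478, and within the 9 RIP-seq libraries 0.955, 0.936 and 0.919. For miR-27a-3p they were miR-148b-3p (0.988), miR-6735-3p (0.987) and miR-196b-5p (0.986), with 0.187, 0.623 and 0.808 in the knockdown and 0.980, 0.984 and 0.975 in the RIP-seq experiment. For miR-24-3p, whose level differed less between the groups, they were miR-6872-3p (0.799), miR-6765-3p (0.791) and miR-410-5p (0.778), with 0.916, 0.786 and 0.600 in the knockdown and 0.513, 0.547 and 0.491 in the RIP-seq experiment. The libraries and their scaling are common to all points, so these values describe likeness only.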

How the data were processed

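Small RNA of 15 libraries was analysed. Per the study's methods, adapters were removed with cutadapt (4 bp overlap, 20% error), reads of 16 to 28 bp were kept and matched to mature miRNAs of miRBase release 20 by exact matches of at least 7 bases that cover at least 17. The authors deposited raw counts of reads per miRNA, without normalization and without genome positions. No row lacked a miRNA name, and the authors' reads on other RNA were not analysed here.

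RPM were computed from the total miRNA reads of a library. Differences were tested over all listed miRNAs with the quasi-likelihood test of edgeR (functions glmQLFit, glmQLFTest), with clone as a block, after filterByExpr (minimum count 10) and with total miRNA reads as the library sizes, in the 6 libraries of a comparison, adjusted by Benjamini-Hochberg at 0.05. The SE is the log2 fold change divided by the square root of F. Ratios within a library had 0.5 reads added to both counts, and shares have 95% Wilson intervals, which cover counting error only. For the study's rule of enrichment 3 reads stood in for an IgG count of 0. Versions were edgeR 4.0.16, DESeq2 1.42.0 and limma 3.58.1 under R 4.3.3, and scipy 1.17.1, pandas 2.3.3, matplotlib 3.10.9 and numpy 2.4.6 under Python 3.11.15. The test was also run on simulated counts with 200 changed miRNAs and no clone effect, and no result above rests on that run.

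Libraries of a clone are pairs because they come from the same line. Deviations from the group means correlated at 0.189, 0.121 and 0.160 between the siRNA groups, at 0.0117, 0.0313 and 0.0370 between m6A and IgG, at -0.0284, -0.0667 and -0.0711 between m6A and input and at 0.0661, -0.0273 and 0.0406 between IgG and input. Libraries of a group differed beyond sampling noise (chi-square per degree of freedom 5.22 to 139.4).

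All 10 miRNAs were described, and with them 5 other miRNAs of these loci or of related seed. Members, lists and tests were chosen with earlier results of these data known. The 1.5-fold threshold, the comparison of arms over all hairpins and the 100 most abundant miRNAs were added after the members' values were seen. Alternatives were TMM factors, DESeq2, no filter on low counts, no block, totals without miR-6080, an IgG count of 0 set to 1, a pseudocount of 1 and each clone left out.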

Additional observations from a re-analysis of the deposited data

How the results depend on the processing

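Against the input, miR-27b-3p, miR-27a-3p and miR-27b-5p with m6A, and miR-27b-3p and miR-27a-3p with IgG, kept direction and call under every alternative run. Without the replicate block the numbers of members called were the same in all 4 comparisons, and the only sign that changed was that of miR-23a-3p for m6A against input, to 0.018. Without a filter on low counts no call or sign changed.

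Against scrambled siRNA, members higher and members lower each ranged from 0 to 1 with a clone left out, both at 0 without FTO1C1. TMM factors and DESeq2 turned miR-23a-3p to -0.26 and -0.27, miR-23b-3p to -0.25 and -0.26, and miR-24-2-5p to -0.17 and -0.18. With a clone left out miR-23a-3p ranged from -0.13 to 0.23, miR-23b-3p from -0.18 to 0.30, miR-27a-3p from -0.26 to 0.0024 and miR-27b-5p from -0.047 to 0.051. With TMM scaling 0 members met the study's rule for an increase and 1 that for a decrease.

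For m6A against IgG, 3 members were higher with TMM factors, DESeq2 or totals without miR-6080, and 3 to 4 with a clone left out. Over all miRNAs, totals without miR-6080 gave 446 higher of 1909 tested. Leaving out FTO1C1, FTO2D4 or FTO3C3 gave 710 of 2152, 456 of 1999 and 588 of 2039. With TMM factors, DESeq2 and totals without miR-6080, miR-24-3p turned to -0.55, -0.66 and -0.49, and miR-24-2-5p to -0.057, -0.069 and -0.0054. miR-24-3p ranged from -0.69 to 0.75 with a clone left out. The members enriched by the study's rule ranged from 1 to 2, the latter without FTO2D4.

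For m6A against input, TMM factors and DESeq2 both gave 1 member higher and 5 lower, and turned miR-24-2-5p to -0.23 and -0.26. Totals without miR-6080 turned miR-23a-3p to 0.44 and miR-23c to 0.021. With a clone left out miR-23a-3p ranged from -0.33 to 0.18 and miR-24-3p from -1.34 to 0.12. For IgG against input, the members higher were 0 with TMM factors, DESeq2 or any clone left out and 3 with totals without miR-6080, which turned miR-24-3p to 0.47. Those totals gave 1231 higher of all 1975 miRNAs tested, which is the background for these 3. Leaving out FTO1C1, FTO2D4 or FTO3C3 gave 509 of 1972, 724 of 1986 and 600 of 1958. DESeq2 turned miR-24-2-5p to -0.054. The cause of these changes was not tested beyond the change of scale that each setting makes. Over all miRNAs, TMM factors and DESeq2 gave 21 and 33 higher and 34 and 58 lower with FTO siRNA in place of 118 and 12, 453 and 364 higher and 302 and 251 lower for m6A against IgG in place of 792 and 26, 575 and 486 higher and 614 and 588 lower for m6A against input in place of 1452 and 229, and 559 and 442 higher and 586 and 541 lower for IgG against input in place of 714 and 423. With FTO siRNA, DESeq2 gave an adjusted p for only 777 miRNAs, where edgeR gave one for 2374. Its 33 and 58 there are therefore not counts over the same miRNAs. The depth of the IgG libraries, with 0 to 34 reads per member, limits every fold against IgG.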
